A study of Mus musculus with 8 samples.

Results

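This account covers the ligands, receptors and a secreted antagonist of TGF-beta, activin and BMP signalling in the mouse muscle line C2C12, with and without siRNA against DOR, the product of Trp53inp2. The genes are Tgfb1, Tgfb2, Tgfb3, Bmp4, Fst, Tgfbr1, Tgfbr2, Tgfbr3 and Acvr2b, taken as every probe set whose single annotated symbol is one of them. That gave 21 of 45037 probe sets and 9 of 18193 genes; the myostatin gene Mstn, the tenth gene of the list, was not analysed here. C2C12 is an established mouse myoblast line that differentiates into myotubes when serum is lowered. Of the 8 arrays, 4 came from cells carrying a lentivirus with DOR siRNA and 4 from cells carrying a lentivirus with scrambled RNA. Cells of both groups were transduced at an moi of 100, expanded for 5 to 7 days and sorted on GFP (93 to 99% positive), per the labels' protocols, and then spent 4 days in medium with 5% horse serum; other labels call the harvested cells confluent myoblasts. The labels name the replicates biological, without saying how the cultures were derived from the line, so p-values measure the spread between these cultures, and the labels name 1 DOR siRNA.

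TGF-beta ligands bind the type II receptor TGFBR2, which recruits and phosphorylates the type I receptor TGFBR1, and the complex then activates SMAD2 and SMAD3. Betaglycan, encoded by Tgfbr3, is a coreceptor that presents ligand, TGF-beta 2 above all, to the signalling receptors. Activins signal through ACVR2A and ACVR2B and are neutralised by follistatin (Fst), while BMP4 acts through SMAD1 and SMAD5 and induces Id genes. In myoblast cultures TGF-beta and BMP ligands are known to hold back differentiation, and follistatin to favour muscle growth.

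The values are RMA expression values in log2 units, so a difference of 1 is a doubling. Trp53inp2 was lower on every knockdown array by its brighter probe set (log2 difference -1.83 ± 0.17, limma adjusted p = 0.00087), while its dimmer probe set was not (0.14 ± 0.08). DOR siRNA 2 stood apart from the other arrays. Its 3' control probe sets exceeded the 5' ones by 0.97 on average over 4 mouse control transcripts, against 0.51 to 0.72 on the other 7 arrays, and by 1.61 for the bacterial dap spike against 0.69 to 0.96. Values without that array are given below for part of the results. Of 8 myotube markers, 3 fell (Myh3, Tnnt3 and Tnnc2), against 1.45% of all genes. With cultures paired by replicate number 4 fell, against 3.16% of all genes. The count was 2 without DOR siRNA 2, where 4.14% of all genes passed in either direction. All 8 had differences below 0 with an unadjusted p under 0.05, which 6.55% of all genes had in that direction (list median -0.32), and the list's mean lay at 13.70 to 13.92 on the scrambled arrays and 13.24 to 13.58 on the knockdown arrays. Myoblast markers fell for 1 of 7, Ncam1, against 1.45% of all genes, with list means of 11.66 to 11.91 and 11.65 to 11.80. Of the 7, 5 had differences below 0 and 2 above it (list median -0.07, highest 0.45). With cultures paired 1 rose and 1 fell, against 5.10% and 3.16% of all genes. Of 5 fibroblast markers 1 rose, Pdgfra, against 3.11% of all genes, while 3 of the 5 had differences below 0 (list median -0.03). With cultures paired 2 rose, against 5.10% of all genes. The fibroblast list's mean was 5.72 to 5.87 on the scrambled and 5.82 to 6.17 on the knockdown arrays. Of these markers, 3 of the 5 were dimmer than the median probe set (6.18). Markers of adipocytes (4 of 4) and endothelium (5 of 5) lay under that median, as did 2 of 4 osteoblast and 2 of 5 macrophage markers, and none of these lists had a called member. The part of these marker shifts in the results below was not tested, and in bulk RNA fewer cells of a type and less RNA per cell cannot be told apart.

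Among the 9 genes, each represented by its brightest probe set over the 8 arrays (its first probe set from here on), 1 rose, none fell and 8 did not pass the threshold of an adjusted p under 0.05. Over all 18193 genes 4.56% passed, 3.11% upward and 1.45% downward, so 1 call among 9 is no result about the genes as a group. The gene that rose was Tgfbr3. Counted by probe set, 1 of 21 passed, upward, against 3.22% of all probe sets (2.04% upward, 1.19% downward). In the fit that pairs cultures by replicate number, 2 of 9 genes passed, both upward (Tgfbr3 and Tgfbr2), against 8.25% of all genes (5.10% upward, 3.16% downward), and 2 of 21 probe sets against 6.28%. Without DOR siRNA 2, 1 of 9 genes passed against 4.14%, and 1 of 21 probe sets against 3.01%. Groups did not overlap for 3 of the 21, all higher in the knockdown, against 9.85% of all probe sets. The median difference over the 9 genes was 0.06, against 0.015 over all genes.

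**Figure D1:**
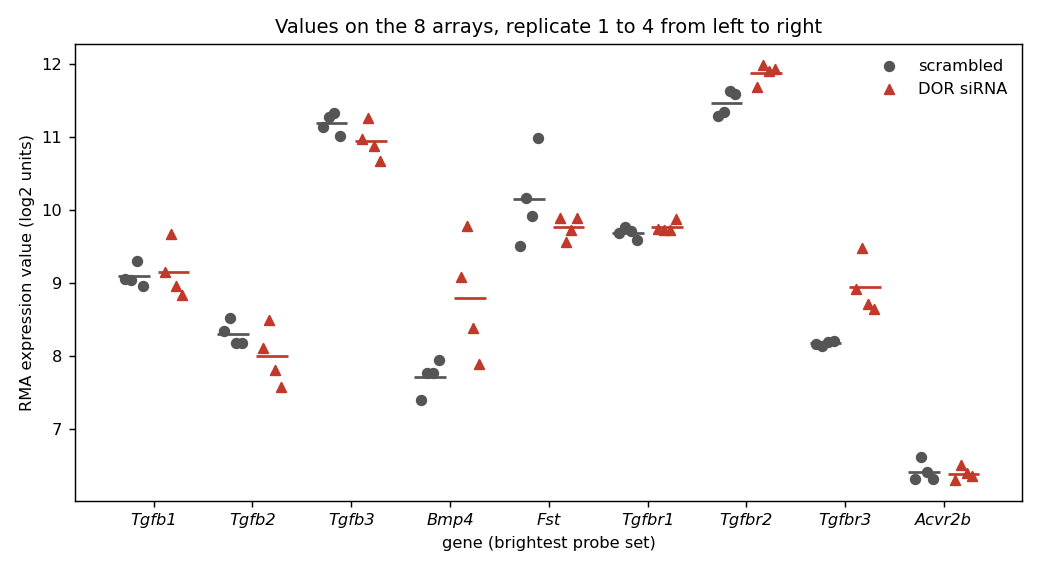
RMA expression values (log2 units, vertical axis) of the brightest probe set of 9 genes on each of the 8 arrays, with circles for scrambled, triangles for DOR siRNA, replicates 1 to 4 from left to right and bars at the group means. Tgfbr3 and Tgfbr2 show no overlap between the groups, and the DOR siRNA values of Bmp4 spread from 7.90 to 9.79.

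Among the receptors, betaglycan rose. Its first probe set read 8.17, 8.14, 8.19 and 8.21 on scrambled arrays 1 to 4 and 8.93, 9.49, 8.72 and 8.65 on DOR siRNA arrays 1 to 4. The scrambled values were tightly grouped, every knockdown value lay above them, and DOR siRNA 2 was the highest. The mean went from 8.18 ± 0.03 to 8.95 ± 0.38 (SD, n = 4 each), a 1.70-fold rise (log2 difference 0.77 ± 0.15, 95% interval 0.43 to 1.11, limma adjusted p = 0.025). By same-numbered pair of cultures the rises were 0.75, 1.35, 0.53 and 0.44, all upward as the lack of overlap entails. Without DOR siRNA 2 the difference was 0.59 ± 0.09 (limma adjusted p = 0.0083). Leaving out scrambled 1, 2 or 3 or DOR siRNA 1 ended the call at differences of 0.75 to 0.77 (limma adjusted p of 0.063 to 0.076), as did the poly-A spike level as a covariate (0.80, limma adjusted p = 0.052). The second probe set of Tgfbr3 read 6.30, 6.20, 6.31 and 6.36 on the scrambled and 6.83, 6.38, 6.47 and 6.51 on the knockdown arrays. Those groups did not overlap either, with the knockdown higher by 0.25 ± 0.10, which did not pass (limma adjusted p = 0.23). Without DOR siRNA 2 the difference of this probe set was 0.31 ± 0.10 (limma adjusted p = 0.14).

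The genes most like Tgfbr3 over the 8 arrays, among 11256 genes at or above the median level, were Fam114a1 (Pearson r = 0.994), Gata2, a zinc finger transcription factor (r = 0.990), and Tapbp, the tapasin of MHC class I peptide loading (r = 0.988). These correlations run over 2 groups of arrays and describe likeness only; over the 7 arrays without DOR siRNA 2 they were 0.987, 0.976 and 0.970. Knockdown minus scrambled was 0.58 ± 0.12 for Fam114a1, 0.44 ± 0.10 for Gata2 and 0.48 ± 0.12 for Tapbp. All 3 had their highest value on DOR siRNA 2, as Tgfbr3 did. Without that array the differences were 0.45 ± 0.08, 0.34 ± 0.08 and 0.36 ± 0.09. The 3 genes were picked for following Tgfbr3 over these arrays, so differences of its sign and a peak on DOR siRNA 2 came with the choice. They are description and no further result.

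The type II receptor Tgfbr2 was higher on every knockdown array by its first probe set, short of the threshold. It read 11.29, 11.34, 11.63 and 11.60 on the scrambled arrays and 11.69, 11.99, 11.90 and 11.94 on the knockdown arrays. No knockdown value fell within the scrambled range, although DOR siRNA 1 lay close to scrambled 3. The difference was 0.41 ± 0.10 (1.33-fold, 95% interval 0.19 to 0.64) and missed the threshold (limma adjusted p = 0.057). It passed in the paired fit (limma adjusted p = 0.025) and was higher in 4 of 4 pairs, which the lack of overlap entails. It also passed with a variance trend and robust prior (limma adjusted p = 0.047), without dim probe sets (0.043), with the 3' minus 5' control value as a covariate (0.045) and without scrambled 4 (0.041). Of 15 alternatives these 5 called it and 10 did not. Among the latter were cyclic loess (0.41, limma adjusted p = 0.064) and the poly-A covariate (0.34, limma adjusted p = 0.12). Without DOR siRNA 2 it was 0.38 ± 0.11 (limma adjusted p = 0.10), and over the 8 arrays left out in turn the adjusted p ran from 0.041 to 0.17.

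The other Tgfbr2 probe sets did not show this. The second probe set read 8.80, 8.86, 8.99 and 9.23 on the scrambled arrays and 9.22, 8.24, 9.25 and 9.43 on the knockdown arrays, a difference of 0.07 ± 0.22. DOR siRNA 2 was the lowest of the 8 here, whereas it was the highest by the first probe set. Without that array the difference was 0.33 ± 0.11 (limma adjusted p = 0.16). The third probe set lay between 2.83 and 3.06, well under the median of 6.18, with a difference of 0.02 ± 0.08. The mean over the 3 probe sets differed by 0.17 ± 0.10 (limma adjusted p = 0.43).

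The type I receptor Tgfbr1 showed no difference past the threshold. Its first probe set read 9.70, 9.77, 9.71 and 9.59 on the scrambled arrays and 9.75, 9.73, 9.73 and 9.88 on the knockdown arrays. The groups overlapped, and the difference was 0.08 ± 0.07 with a 95% interval of -0.08 to 0.24 (limma adjusted p = 0.71). A change of the size seen for Tgfbr3 lies outside the interval of this probe set. In the dimmer probe sets 1 array lay apart. By the second the scrambled arrays read 6.57 to 7.06 and DOR siRNA 1, 3 and 4 read 6.84, 6.77 and 6.93, against 5.69 on DOR siRNA 2. By the third the values were 6.30 to 6.63 on the scrambled arrays, then 6.36, 6.65 and 6.76, against 4.84 on DOR siRNA 2. The differences of these probe sets were -0.25 ± 0.24 (95% interval -0.77 to 0.27) and -0.30 ± 0.34 (-1.06 to 0.45) with that array. They were 0.04 ± 0.11 and 0.13 ± 0.12 without it. It is also the array with the high 3' minus 5' control values. With those values as a covariate, the differences were -0.10 ± 0.09 and -0.10 ± 0.15, and that of the second Tgfbr2 probe set was 0.20 ± 0.09 in place of 0.07 ± 0.22. The covariate is itself set apart on DOR siRNA 2, so this fit is not independent of leaving that array out. Why these probe sets were low on that array was not tested.

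**Figure D2:**
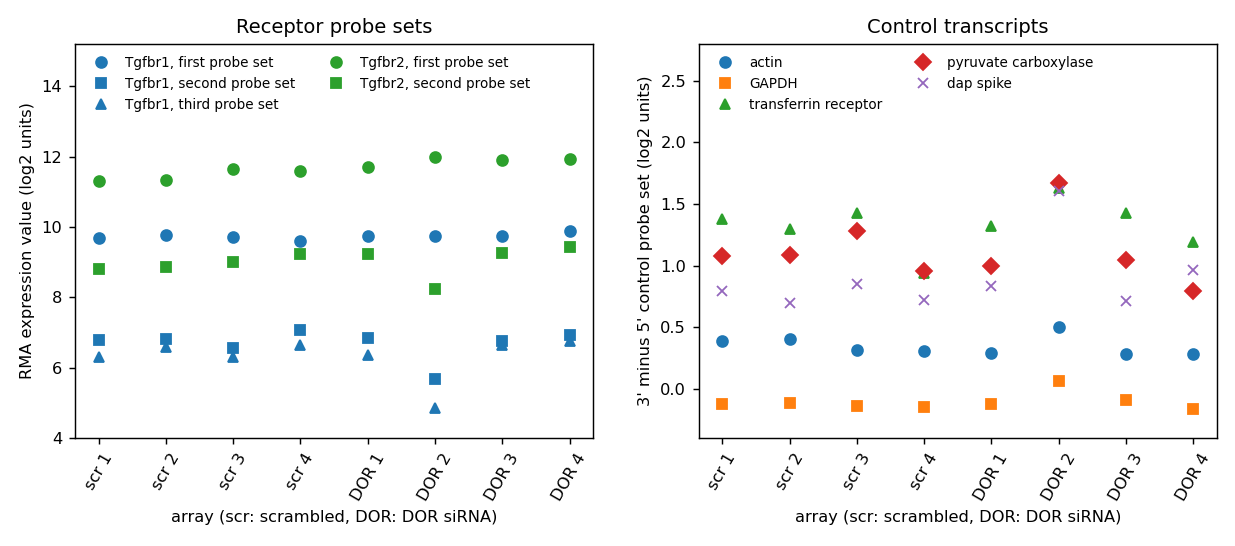
Left, values (log2 units) of 3 probe sets of Tgfbr1 and the 2 brighter ones of Tgfbr2, numbered by brightness, on each array; right, the 3' minus 5' difference (log2 units) of 4 mouse control transcripts and the dap spike on the same arrays. On DOR siRNA 2 the second and the third of Tgfbr1 and the second of Tgfbr2 are lowest (5.69, 4.84 and 8.24) and all 5 control differences are highest.

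The activin type II receptor Acvr2b showed no difference that passed. Its first probe set read 6.32, 6.62, 6.42 and 6.32 on the scrambled and 6.31, 6.51, 6.40 and 6.36 on the knockdown arrays. The groups overlapped fully, with a difference of -0.03 ± 0.09 (95% interval -0.22 to 0.17, limma adjusted p = 0.95). The other probe sets of Acvr2b, with means of 5.87 and 4.83 over the 8 arrays, differed by -0.15 ± 0.16 and -0.01 ± 0.12. Without DOR siRNA 2 they differed by -0.28 ± 0.13 and 0.10 ± 0.10 (limma adjusted p of 0.35 and 0.72). No detection call was used here for such dim probe sets.

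Bmp4, by its single probe set, had the largest difference among the first probe sets of the 9 genes and the widest spread. It read 7.40, 7.77, 7.77 and 7.95 on the scrambled arrays and 9.09, 9.79, 8.39 and 7.90 on the knockdown arrays. DOR siRNA 1, 2 and 3 lay above all scrambled values, while DOR siRNA 4 lay just under scrambled 4. The mean was 7.72 ± 0.23 in the scrambled group and 8.79 ± 0.83 in the knockdown group (SD, n = 4 each), a difference of 1.07 ± 0.32 (2.10-fold, 95% interval 0.36 to 1.78) that did not pass (limma adjusted p = 0.11, and 0.064 in the paired fit). By pair it was 1.69, 2.02, 0.62 and -0.05, so that 3 of 4 pairs went up. It was 0.74 ± 0.23 without DOR siRNA 2 (limma adjusted p = 0.13), and passed without DOR siRNA 4 (1.37 ± 0.26, limma adjusted p = 0.026) and with the 3' minus 5' covariate (0.93 ± 0.24, limma adjusted p = 0.047). Over the 8 arrays left out in turn the limma adjusted p ran from 0.026 to 0.28.

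The TGF-beta ligands did not pass, and they differed in sign. Tgfb1 by its first probe set read 9.06, 9.05, 9.31 and 8.96 on the scrambled and 9.15, 9.67, 8.96 and 8.85 on the knockdown arrays, with overlapping groups and a difference of 0.06 ± 0.16 (limma adjusted p = 0.92). DOR siRNA 2 was the highest array, and without it the difference was -0.11 ± 0.11. The dim second probe set of Tgfb1 differed by 0.01 ± 0.10.

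Tgfb2 was lower by all 4 of its probe sets, by 0.15 to 0.33 log2 units, with none past the threshold. The first read 8.34, 8.53, 8.18 and 8.18 on the scrambled arrays and 8.12, 8.50, 7.82 and 7.59 on the knockdown arrays. DOR siRNA 1, 3 and 4 lay below every scrambled array and DOR siRNA 2 lay among them. The difference was -0.30 ± 0.17 (limma adjusted p = 0.46) and negative in 4 of 4 pairs, while by the other 3 probe sets DOR siRNA 2 was above its pair. Without DOR siRNA 2 it was -0.47 ± 0.13 (limma adjusted p = 0.094), and the other 3 probe sets stood at -0.53, -0.57 and -0.37. Without DOR siRNA 4 the first was -0.16 ± 0.15 (limma adjusted p = 0.74) and the others -0.14, -0.13 and 0.0011. The 4 probe sets share a target gene and are not independent.

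Tgfb3 was lower in each pair of cultures, short of the threshold. Its single probe set read 11.14, 11.28, 11.34 and 11.02 on the scrambled and 10.97, 11.27, 10.88 and 10.67 on the knockdown arrays. The groups overlapped through DOR siRNA 2, with a difference of -0.25 ± 0.12 (95% interval -0.52 to 0.02, limma adjusted p = 0.38) that was negative in 4 of 4 pairs. With the 3' minus 5' covariate it was -0.31 ± 0.08 and passed (limma adjusted p = 0.036), and without DOR siRNA 2 it was -0.35 ± 0.10 (limma adjusted p = 0.11). Without DOR siRNA 4 it was -0.16 ± 0.12 (limma adjusted p = 0.64).

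Fst, the antagonist of activins and myostatin, was marked by 1 scrambled array. By the first probe set the values were 9.51, 10.18, 9.93 and 10.99 on the scrambled and 9.89, 9.56, 9.73 and 9.90 on the knockdown arrays, and scrambled 4 was the highest of all. Its second probe set gave the same picture, with 10.51 on scrambled 4 against 9.40 to 9.68 on the other scrambled arrays. The differences of -0.38 ± 0.24 and -0.32 ± 0.21 did not pass (limma adjusted p = 0.54 for each), and without scrambled 4 they were -0.10 and -0.07.

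**Figure D3:**
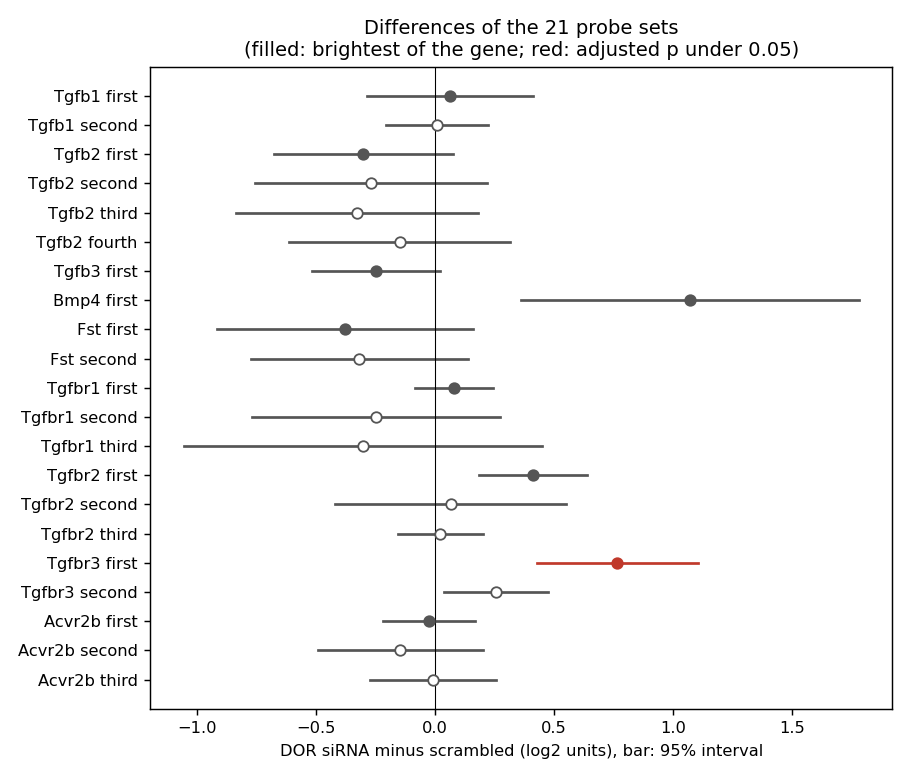
Differences, DOR siRNA minus scrambled, in log2 units with 95% intervals for the 21 probe sets, numbered by brightness within a gene, filled for the first and red where the limma adjusted p is under 0.05. The first probe set of Tgfbr3 (0.77) passed, and the intervals of its second, of Bmp4 and of the first of Tgfbr2 also lie above 0.

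Promoter sequence is shown for Bmp4 and Tgfbr2, which after Tgfbr3 had the smallest p, and for Tgfb2, which was lower by every probe set. The RefSeq table (GRCm38.p6) lists a promoter for 7 of the 10 genes of the list. The 250 bases before the start of transcription are given 5' to 3', with E-boxes (CANNTG), the general letters of bHLH factor sites, in capitals. Which factor binds a given E-box was not tested.
Bmp4, chr14:46390670-46390919, minus strand: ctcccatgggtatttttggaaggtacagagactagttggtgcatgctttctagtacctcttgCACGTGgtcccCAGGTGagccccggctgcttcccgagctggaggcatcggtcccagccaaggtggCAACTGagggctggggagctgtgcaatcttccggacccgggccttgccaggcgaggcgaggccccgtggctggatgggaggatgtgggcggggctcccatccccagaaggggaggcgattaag
Tgfbr2, chr9:116175364-116175613, minus strand: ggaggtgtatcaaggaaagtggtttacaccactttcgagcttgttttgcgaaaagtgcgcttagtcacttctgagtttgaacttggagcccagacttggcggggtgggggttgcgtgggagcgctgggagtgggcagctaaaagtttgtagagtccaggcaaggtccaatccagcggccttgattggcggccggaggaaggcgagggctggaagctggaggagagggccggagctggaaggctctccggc
Tgfb2, chr1:186705990-186706239, minus strand: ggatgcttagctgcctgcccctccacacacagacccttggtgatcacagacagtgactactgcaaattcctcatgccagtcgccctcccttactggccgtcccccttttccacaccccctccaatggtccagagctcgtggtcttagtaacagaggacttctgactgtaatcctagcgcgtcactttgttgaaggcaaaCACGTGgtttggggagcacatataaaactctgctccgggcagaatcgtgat
The Bmp4 window holds 3 E-boxes, that of Tgfb2 1 and that of Tgfbr2 none, while 66.2% of 32851 listed promoters hold at least 1 in a window of this length. Neither the SMAD palindrome GTCTAGAC (0.167% of promoters) nor the MEF2 letters, CTA and TAG held 4 bases apart (3.20%), occur in these windows, searched on both strands. A match describes the letters only.

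Related genes were compared within arrays, where scaling between arrays cancels, by an exact two-sided permutation test over the 8 arrays for 6 pairs. No pair passed after Benjamini-Hochberg adjustment, 2 had an unadjusted exact p of 0.029, the smallest possible, and 4 at that value would have been needed to pass. Tgfbr3 minus Tgfbr1 was 0.69 higher in the knockdown (exact permutation p = 0.029, adjusted 0.086), with no overlap between groups, which this smallest possible p entails. For Tgfb3 minus Tgfb1 the value was -0.31 (exact permutation p = 0.029, adjusted 0.086), again with no overlap. For Tgfbr2 against Tgfbr1 the value was 0.33 and for Tgfb2 against Tgfb1 it was -0.36 (exact permutation p = 0.057, adjusted 0.086, for each). Tgfbr3 against Tgfbr2 gave 0.35 (exact permutation p = 0.14, adjusted 0.17) and Tgfb3 against Tgfb2 0.05 (exact permutation p = 0.77). Without DOR siRNA 2, Tgfbr3 minus Tgfbr1 was 0.49 and Tgfb3 minus Tgfb1 was -0.24 (exact permutation p = 0.029, adjusted 0.086, for each), and the other 4 pairs gave -0.36 (Tgfb2 and Tgfb1), 0.28 (Tgfbr2 and Tgfbr1), 0.21 (Tgfbr3 and Tgfbr2) and 0.11 (Tgfb3 and Tgfb2), none past the threshold. With cultures paired, an exact sign-flip test of 4 pairs cannot go below 0.125, and none passed.

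Beyond these genes, 100 of 110 genes in 8 lists of the pathway were measured. Of them 4 rose, 1 fell and 95 did not pass, which is 5 of 100 against the 4.56% of all genes. The paired fit called 9 (6 higher, 3 lower), against 8.25% of all genes, and without DOR siRNA 2 the count was again 5, against 4.14%. The count was 1 without scrambled 1, scrambled 2 or DOR siRNA 3, where 2.10, 2.20 and 2.00% of all genes passed. Without DOR siRNA 1 it was 2 (2.58% of all genes), without scrambled 3 it was 3 (2.02%) and without scrambled 4 it was 9 (6.96%). With the poly-A covariate 1 passed, against 2.64% of all genes.

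In the list of latency and activation 1 of 14 rose and 1 fell (median 0.12), against 3.11% and 1.45% of all genes. Itgb6, the integrin beta subunit that with the alpha v chain activates latent TGF-beta, fell from 8.53, 8.84, 8.45 and 8.18 on the scrambled arrays to 7.60, 7.60, 7.58 and 7.15 on the knockdown arrays. The groups were well apart, the fall was 2.02-fold (-1.02 ± 0.14, limma adjusted p = 0.0052), and the call held whichever array was left out. Ltbp2, the member of the latent TGF-beta binding protein family known not to bind the latent complex, rose by 0.90 ± 0.19 (limma adjusted p = 0.030), with 7.66, 7.53, 7.90 and 8.40 on the scrambled and 8.58, 9.21, 8.66 and 8.64 on the knockdown arrays.

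Of 16 extracellular modulators 2 rose, against 3.11% of all genes, and 14 did not pass (median 0.15). These were the secreted serine proteases Htra3 (0.78 ± 0.15, limma adjusted p = 0.018) and Htra1 (0.61 ± 0.13, limma adjusted p = 0.028), which are reported to restrain TGF-beta family signalling. Htra1 read 10.68, 10.67, 10.69 and 10.47 on the scrambled and 11.20, 11.60, 11.20 and 10.93 on the knockdown arrays, all higher. In the paired fit 4 of the 16 rose, against 5.10% of all genes. The others, named after their values were seen, were decorin (Dcn), a proteoglycan that binds TGF-beta (0.56 ± 0.15, limma adjusted p = 0.077 unpaired and 0.0076 paired), and Twsg1, a binder of BMPs (0.36 ± 0.09, limma adjusted p = 0.055 and 0.0497). Unadjusted, 7 of the 16 were higher at a p under 0.05 and none lower, against 11.5% and 6.55% of all genes. In the mean over its probe sets Htra3 stood at 0.33, without a call (limma adjusted p = 0.12).

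In the list of BMP targets 1 of 10 rose (median 0.11), against 3.11% of all genes. Id3, an inhibitor of bHLH factors, read 7.04, 7.12, 7.54 and 7.90 on the scrambled and 8.87, 9.77, 8.69 and 8.02 on the knockdown arrays, a rise of 1.44 ± 0.31 (2.70-fold, limma adjusted p = 0.033). It was highest on DOR siRNA 2 and lowest of the knockdown arrays on DOR siRNA 4. Bmp4, Tgfbr3, Tgfb1 and Htra1 shared this order by their first probe sets, so it is not particular to Id3 and Bmp4. DOR siRNA 2 is also the array with the high 3' minus 5' control values. Id1 (0.12 ± 0.13) and Id2 (0.16 ± 0.20), named after their values were seen, did not pass. Without DOR siRNA 2 the differences were 1.12 ± 0.23 for Id3, 0.75 ± 0.17 for Ltbp2, 0.49 ± 0.10 for Htra1, 0.77 ± 0.16 for Htra3 and -1.06 ± 0.16 for Itgb6, all called (limma adjusted p of 0.031, 0.045, 0.028, 0.034 and 0.0087). The calls of Ltbp2, Htra1 and Id3 were lost without scrambled 1, 2 or 3 or DOR siRNA 1 or 3, and those of Htra3 without scrambled 1 or 2 or DOR siRNA 3 (limma adjusted p between 0.053 and 0.11). All 4 also lost them with the poly-A covariate (0.053 to 0.079), and Id3 with the variance trend (0.072).

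None of 16 TGF-beta targets passed the limma test (median 0.04), against 6 higher and none lower at an unadjusted p under 0.05, which 11.5% and 6.55% of all genes had. Snai1, a repressor of E-cadherin, stood at 0.37 ± 0.10 (limma adjusted p = 0.077) and Lox, which cross-links collagen, at 0.68 ± 0.20 (0.099, and 0.041 without scrambled 4). The paired fit called 1 of the 16 lower, against 3.16% of all genes. It was periostin (Postn, -0.94 ± 0.53 unpaired, limma adjusted p = 0.46 unpaired and 0.014 paired), named after its values were seen. Its SD among the knockdown arrays was 1.23.

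None of 8 SMADs passed the limma test (median -0.001), against 1 higher at an unadjusted p under 0.05, the inhibitory Smad7 (0.35 ± 0.11, limma adjusted p = 0.12, and 0.047 without scrambled 3); Smad2 stood at -0.14 ± 0.08 (0.45). None of 11 other receptors passed the limma test (median -0.01), against 1 higher and 1 lower unadjusted, the coreceptor endoglin (Eng, 0.21 ± 0.07, limma adjusted p = 0.19) and the activin receptor Acvr2a (-0.24 ± 0.10, 0.29). None of 12 intracellular inhibitors passed the limma test or had an unadjusted p under 0.05 (median -0.05), with Smurf1, a ubiquitin ligase of SMADs, at 0.22 ± 0.11 and the deubiquitinase Usp15 at -0.13 ± 0.11. None of 13 other ligands passed the limma test (median 0.03), against 1 lower unadjusted. That was the BMP family ligand Gdf5 (-0.75 ± 0.18, limma adjusted p = 0.0501), which passed in the paired fit (0.0077), with the 3' minus 5' covariate (0.020) and without scrambled 4 (0.0071). Its group means, 6.08 and 5.33, are below 6.18, the median over the probe sets. Inhba, the activin A subunit, stood at 0.24 ± 0.15 (limma adjusted p = 0.53).

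**Figure D4:**
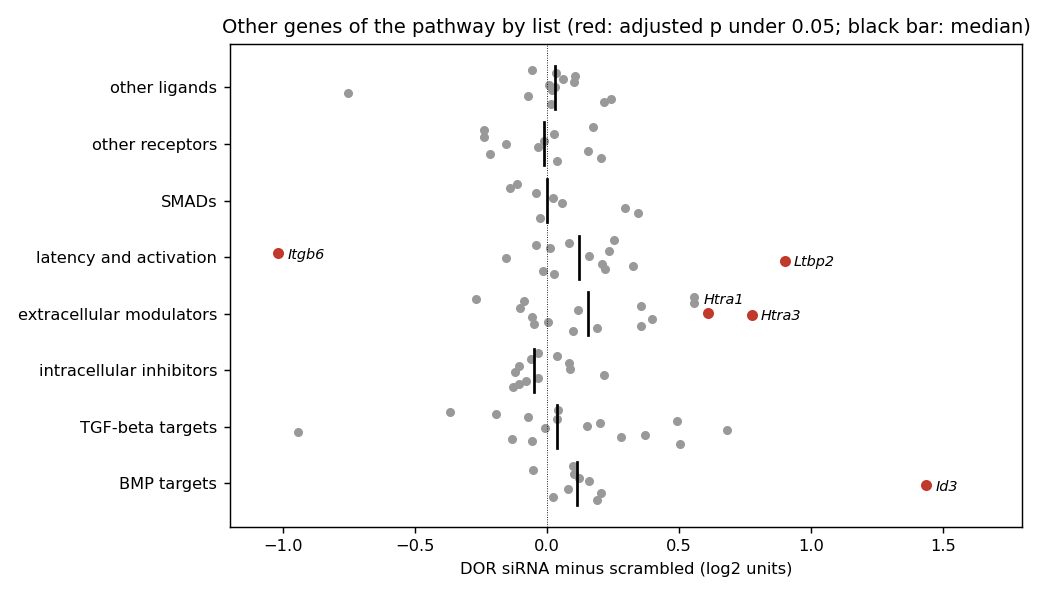
Differences, DOR siRNA minus scrambled (log2 units, horizontal axis), of 100 pathway genes by list, with points red and named where the limma adjusted p is under 0.05 and black bars at the list medians. The 5 named genes are Itgb6 (-1.02), Ltbp2 (0.90), Htra1 (0.61), Htra3 (0.78) and Id3 (1.44), and the list medians lie between -0.05 and 0.15.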

How the data were processed

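Total RNA, 25 ng per sample, was amplified and hybridised to 1-colour Affymetrix arrays, 8 in all, per the labels' protocols. The authors deposited log2 expression values per probe set made with RMA, per the submitters' processing notes, which give no version. RMA equalises the arrays' distributions, so a shift of most transcripts in one direction would not show. Array medians lay between 6.14 and 6.20, and the number of arrays limits the precision.

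After 64 Affymetrix controls were set aside, 45037 probe sets were fitted with limma 3.58.1 in R 4.3.3 (group alone, eBayes), with Benjamini-Hochberg adjustment over all of them. An error beside a difference is the model's standard error. Symbols came from the platform annotation, matched to RefSeq gene identifiers for 34741 of 34945 probe sets with 1 symbol; 932 with several symbols entered the fit and are left unnamed. The files name no build, so positions are given only for the RefSeq promoter sequences (GRCm38.p6). The fits were tested on simulated data, and figures were drawn with matplotlib 3.10.9.

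The genes, pathway lists and tests were chosen with earlier results of these data known. The naming rule took every probe set of the listed genes, Trp53inp2, up to 4 called genes per pathway list, or the 2 with the smallest p where none was called, and the 3 genes most like each called member. The pair of Mstn and Fst and the ligand protein comparison planned with them were not run. Replicates are numbered 1 to 4 in each group, and arrays of one number share a letter in their descriptions. Over all probe sets, the deviations of such arrays from their group means had correlations of 0.15, 0.19, 0.14 and 0.47 for numbers 1 to 4. Those of unlike numbers ran from -0.39 to 0.27, a range that holds the values of numbers 1, 2 and 3. Treating each number as a pair is therefore an assumption of the paired fit that these correlations do not settle. Alternatives were this pairing, a variance trend with robust prior, cyclic loess, the mean of the poly-A spikes as a covariate, removal of dim probe sets, the mean of all probe sets of a gene and each array left out. The 3' minus 5' covariate was added after the data were seen.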

Additional observations from a re-analysis of the deposited data

Results flagged for a closer look

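In 6 of 88 groups of 4 values, 1 array lay far from the other 3, where chance alone gives about 1 in 20 groups. DOR siRNA 2 was such an array in 3 of them. Its value for the second Tgfbr1 probe set was 5.69, with 6.77 the nearest of its group. It read 9.21 for Ltbp2, with 8.66 the nearest, and its actin 3' minus 5' difference was 0.50, with 0.29 the nearest. DOR siRNA 4 was highest for the first Tgfbr1 probe set, at 9.88 with 9.75 the nearest, and lowest for Itgb6, at 7.15 with 7.58 the nearest. Scrambled 4 was lowest for Htra1, at 10.47 with 10.67 the nearest.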

How the results depend on the processing

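With the replicate block, 2 listed genes and 2 of their probe sets were called in place of 1, and 9 pathway genes in place of 5. The variance trend and the removal of dim probe sets also gave 2 genes and 2 probe sets, the 3' minus 5' covariate 4 genes and 4 probe sets (3 higher, 1 lower) with 9 pathway genes, and the poly-A covariate 0 genes and 0 probe sets with 1 pathway gene. Leaving out 1 array gave 0 to 2 genes, 0 to 2 probe sets and 1 to 9 pathway genes. Over all genes tested, these fits called 8.25% (replicate block), 4.33% (variance trend), 8.78% (dim probe sets removed, which leaves 11406 genes), 8.13% (3' minus 5' covariate), 2.64% (poly-A covariate) and 2.00 to 6.96% (1 array left out), against 4.56%. No pair of related genes passed under any alternative run.

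Some signs turned. Differences became 0.0238 for the third probe set of Acvr2b and -0.0260 for the first of Tgfb1 with the 3' minus 5' covariate, -0.0333 for the third of Tgfbr2 with the poly-A covariate and -0.16 for Tgfbr1 in the mean over its probe sets. Over the arrays left out in turn, Acvr2b ran from -0.0635 to 0.0412 (first probe set) and -0.0696 to 0.10 (the third). Tgfb1 ran from -0.11 to 0.17 (first) and -0.0394 to 0.0740 (second), the fourth of Tgfb2 from -0.37 to 0.0011, and Tgfbr1 from -0.37 to 0.0418 (second) and -0.51 to 0.13 (the third). Tgfbr2 ran from -0.0673 to 0.33 (second) and -0.0085 to 0.0668 (the third). The causes were not tested. The other 11 probe sets of the listed genes, and the 15 pathway genes named by rule, kept their direction under every alternative run. Low signal limits what the dim probe sets can show, 4 of the 21 being under the median of all probe sets.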
